A study of Mus musculus with 18 samples.

Results

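The B cell receptor signalling core described here is a set of 9 genes: Cd79a, Cd79b, Lyn, Syk, Blnk, Plcg2, Prkcb, Bank1 and Cd22. They were chosen as core signalling and co-receptor genes and were found by gene name in the deposited count tables, 9 of 40327 genes in the 129 tables and 8 of 39147 in the Cast tables, where Cd22 is not listed by name. The cells were CD23+ B cells of the spleen of female F1 mice from a cross of the 129S1 and Cast strains that carried 1 deleted Xist allele (Xist+/-). In every sample, naive ones included, the X chromosome from Cast was the inactive one. Most X-linked reads were therefore expected from the 129 X chromosome, though not for every gene, as the Xist reads given below show. One group of 3 samples was naive and had no treatment, and the other group of 3 samples was stimulated in culture with 1 µM CpG for 24 h. None of these samples was labelled as cultured without CpG, so effects of culture and of CpG cannot be told apart in any change given here. CpG oligonucleotides are sensed by a Toll-like receptor of the endosome, so the stimulus does not act through the antigen receptor. Total RNA was sequenced, and reads were counted separately for the 129 and the Cast allele of each gene. Ages are not given in the sources used here, and nothing there says that the 3 samples of a group came from separate animals, so the p-values measure the spread between these samples, which may be technical.

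The antigen receptor of a B cell is a membrane immunoglobulin held together with the signalling chains encoded by Cd79a and Cd79b. When antigen binds, the kinase Lyn phosphorylates the tails of those chains, the kinase Syk docks there, and Syk phosphorylates the adaptor Blnk, which brings Plcg2 to the membrane with the kinase Btk. The phospholipase Plcg2 makes the messengers that release calcium and switch on protein kinase C beta, the product of Prkcb, and from there NF-kB. Cd22 and Bank1 tune this signal, Cd22 as a lectin co-receptor that recruits a phosphatase and Bank1 as a scaffold that binds Lyn and the calcium channel of the endoplasmic reticulum.

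Gene reads per sample ran from 1987266 to 2928236 in the 129 tables and from 2465073 to 3321753 in the Cast tables, and genes without a name took 14.4% to 19.7% of the Cast reads. Xist, 1 allele of which is deleted, had 586 to 922 reads in the 129 tables and 4613 to 6930 reads in the Cast tables, the strain of the inactive X chromosome. The labelled cell type was checked against 5 B cell genes (Ms4a1, Pax5, Ebf1, Cd37 and Fcer2a, the gene of CD23). Levels of single genes are given as CPM, that is read counts scaled to a common library size with TMM factors. Levels summed over a list are CPM of all gene reads without those factors. The summed level of these genes was 4035 to 5085 in naive and 1813 to 2135 CPM in CpG samples in the 129 tables. As a sum, the markers were thus present in all 6 samples. The fall was largest for Fcer2a, with means of 357 CPM in naive and 9.54 CPM in CpG samples in the 129 tables. In the Cast tables its means were 504 and 23.4 CPM. A list of 16 macrophage genes also separated the groups. Of the 15 in the tables, summed CPM was 5816, 2861 and 3280 in naive replicates 1 to 3 and 24.6 to 35.0 in CpG samples in the 129 tables, and 5030, 2377 and 3077 against 21.4 to 32.4 in the Cast tables. All 13 that could be tested were lower after CpG on both alleles. In the CpG samples, C1qa, C1qb and C1qc, the chains of complement C1q, had at most 1 read on either allele. Of 9 T cell genes only Cd4 had enough reads to be tested in the 129 tables, at 30.7 CPM in naive and 0 in CpG samples, and Cd3e, Cd3d and Cd3g averaged under 2 reads per sample. Of the plasma cell genes Jchain was lower after CpG, and Prdm1 and Xbp1 were higher, on both alleles. Naive samples held macrophage transcripts that CpG samples nearly lacked. Lyn, Syk, Blnk and Plcg2 are known to be expressed in macrophages too, and the part of macrophage RNA in their changes was not tested. In bulk RNA, fewer cells of a type and less RNA per cell cannot be told apart.

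After 24 h of CpG, 6 of the 9 genes were lower on the 129 allele and 6 of the 8 measured genes were lower on the Cast allele, and none was higher (edgeR quasi-likelihood test, Benjamini-Hochberg adjusted p under 0.05). The receptor chains Cd79a and Cd79b, with Bank1 and Cd22, had 3.14- to 4.24-fold lower means, Lyn and Syk 1.69- to 2.15-fold lower means, and Plcg2 and Prkcb passed the test on neither allele. Change was common in these cells. On the 129 allele 10581 genes were tested, of which 55.2% were called, 27% lower and 28.2% higher. On the Cast allele 10365 genes were tested, of which 62.2% were called, 31.5% lower and 30.7% higher. The median log2 fold change was -1.11 over the 9 genes against -0.01 over all tested genes on the 129 allele, and -1.05 over the 8 genes against -0.04 on the Cast allele. The 5 B cell genes named above were all lower on both alleles too, with medians of -1.18 (129) and -1.47 (Cast). They ran from -0.53 for Pax5 to -5.22 for Fcer2a on the 129 allele, and from -0.47 to -4.43 on the Cast allele. Upper-quartile scaling moved the median over all genes to -0.16 on the 129 allele and -0.17 on the Cast allele, and the members called were still 6 and 6. The naive and CpG samples did not overlap for 6 of 9 genes on the 129 allele and 6 of 8 on the Cast allele, against 64.8% and 68.5% of all tested genes.

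**Figure D1:**
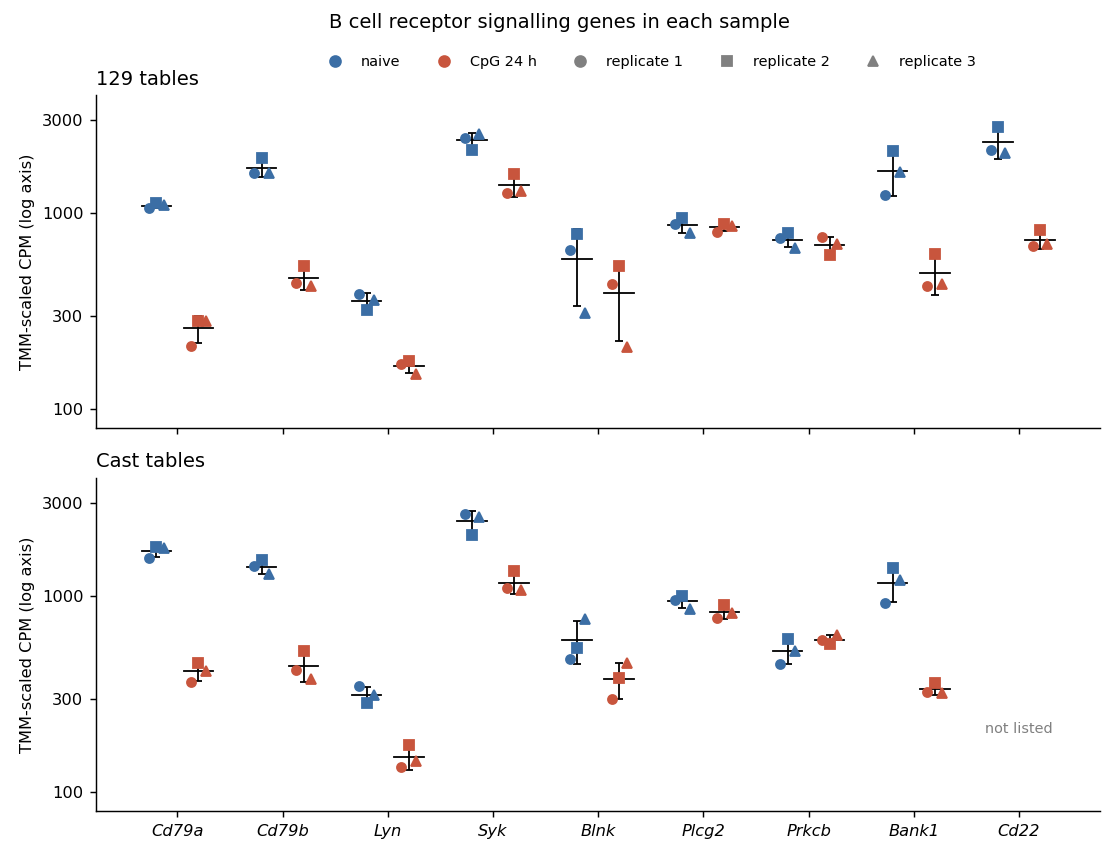
Level of each gene in each sample, in TMM-scaled CPM on a log axis, for the 129 tables and the Cast tables; each point is 1 sample and its colour gives the group. Cd79a, Cd79b, Lyn, Syk and Bank1 show naive samples above all CpG samples on both alleles, while Plcg2 and Prkcb overlap.

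Cd79a, on chromosome 7, encodes the alpha signalling chain of the receptor. Its 129 level was 1061, 1126 and 1099 CPM in naive replicates 1 to 3 and 211, 283 and 282 CPM in the CpG replicates. The naive samples lay close together and every CpG sample was far below them. The fall was -2.08 ± 0.14 (log2 fold change ± SE, n = 3 per group, edgeR adjusted p = 2.95e-05), a 4.24-fold lower mean. The Cast level went from 1574, 1787 and 1758 to 366, 458 and 415 CPM, with a change of -2.05 ± 0.14 (edgeR adjusted p = 3.04e-06).

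Cd79b, on chromosome 11, encodes the beta chain. On the 129 allele it stood at 1610, 1912 and 1602 CPM in naive and 439, 541 and 424 CPM in CpG samples. From Cast it stood at 1430, 1523 and 1292 CPM in naive and 421, 524 and 378 CPM in CpG samples. Neither allele showed any overlap of the groups. The log2 fold change was -1.87 ± 0.14 (129, edgeR adjusted p = 4.35e-05) and -1.68 ± 0.16 (Cast, edgeR adjusted p = 1.61e-05).

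Lyn, on chromosome 4, encodes the Src-family kinase that starts the signal and also phosphorylates the inhibitory co-receptors. The 129 allele gave 388, 322 and 361 CPM in naive and 170, 175 and 151 CPM in CpG samples. The Cast level was 346, 285 and 312 CPM against 134, 174 and 143 CPM. The groups were apart on both alleles, with log2 fold changes of -1.11 ± 0.12 (129, edgeR adjusted p = 2.01e-04) and -1.06 ± 0.14 (Cast, edgeR adjusted p = 1.49e-04).

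Syk, on chromosome 13, encodes the kinase that docks on the phosphorylated chains. From 129 it stood at 2421, 2117 and 2527 CPM in naive and 1269, 1595 and 1306 CPM in CpG samples, and the log2 fold change was -0.76 ± 0.13 (edgeR adjusted p = 0.00223). From Cast it stood at 2622, 2054 and 2548 CPM against 1098, 1344 and 1077 CPM, with a change of -1.04 ± 0.16 (edgeR adjusted p = 3.28e-04). Naive replicate 2 was the lowest naive sample and CpG replicate 2 the highest CpG sample on both alleles, and the groups still did not overlap.

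Blnk, on chromosome 19, encodes the adaptor that links Syk to Plcg2 and Btk. Its 129 level was 649, 785 and 309 CPM in naive and 433, 541 and 206 CPM in CpG samples. Replicate 3 was far below the others in both groups, so the groups overlapped, although the level was lower in CpG in each of the 3 same-numbered pairs. The log2 fold change was -0.56 ± 0.47 (edgeR adjusted p = 0.355) and with the replicate number as a block it was -0.57 (edgeR adjusted p = 5.68e-04). On the Cast allele replicate 3 was instead the highest in both groups, at 480, 546 and 763 CPM in naive and 297, 383 and 456 CPM in CpG samples without overlap. The Cast log2 fold change was -0.65 ± 0.21 (edgeR adjusted p = 0.0217). That call was lost without naive replicate 3 (-0.42, edgeR adjusted p = 0.0889), without CpG replicate 1 (-0.48, 0.0951), without CpG replicate 2 (-0.64, 0.0676) and with replicate 1 left out of both groups (-0.63, 0.0546).

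Plcg2, on chromosome 8, encodes the phospholipase. The 129 allele gave 882, 947 and 793 CPM in naive and 804, 884 and 866 CPM in CpG samples, and its Cast level was 959, 1006 and 860 CPM against 769, 904 and 816 CPM. The groups overlapped on both alleles. The log2 fold change was -0.04 ± 0.11 on the 129 allele (95% interval -0.26 to 0.18, edgeR adjusted p = 0.798) and -0.18 ± 0.13 on the Cast allele (-0.43 to 0.07, edgeR adjusted p = 0.241). Those intervals leave out a fall of the size measured for Cd79a, Cd79b, Lyn, Syk or Bank1 on the same allele.

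Prkcb, on chromosome 7, encodes protein kinase C beta, which passes the signal to NF-kB. From 129 the level was 745, 791 and 666 CPM in naive and 757, 611 and 694 CPM in CpG samples. Its Cast level was 452, 601 and 523 CPM in naive and 598, 567 and 630 CPM in CpG samples. The groups overlapped, and the log2 fold change was -0.09 ± 0.13 on the 129 allele (95% interval -0.34 to 0.15, edgeR adjusted p = 0.55) and 0.19 ± 0.14 on the Cast allele (-0.08 to 0.46, edgeR adjusted p = 0.259).

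Bank1, on chromosome 3, encodes the B cell scaffold protein. The 129 allele gave 1244, 2081 and 1620 CPM in naive and 423, 621 and 437 CPM in CpG samples, with replicate 2 the highest in each group. The Cast allele gave 924, 1390 and 1209 CPM against 323, 362 and 319 CPM. The naive samples spread widely, but all stood above the CpG samples. The log2 fold change was -1.74 ± 0.23 (129, edgeR adjusted p = 6.44e-04) and -1.81 ± 0.17 (Cast, edgeR adjusted p = 1.62e-05).

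Cd22, on chromosome 7, encodes the inhibitory lectin and was measured on the 129 allele alone. Its level was 2111, 2773 and 2041 CPM in naive and 679, 826 and 697 CPM in CpG samples, with no overlap. The log2 fold change was -1.65 ± 0.16 (edgeR adjusted p = 1.20e-04), a 3.14-fold lower mean. In the GENCODE annotation an antisense gene overlaps Cd22 and another overlaps Bank1, and Lyn, Plcg2 and Prkcb overlap noncoding genes or pseudogenes. How strand entered the counting is not given in the sources used here, so reads of such pairs may not have been told apart.

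**Figure D2:**
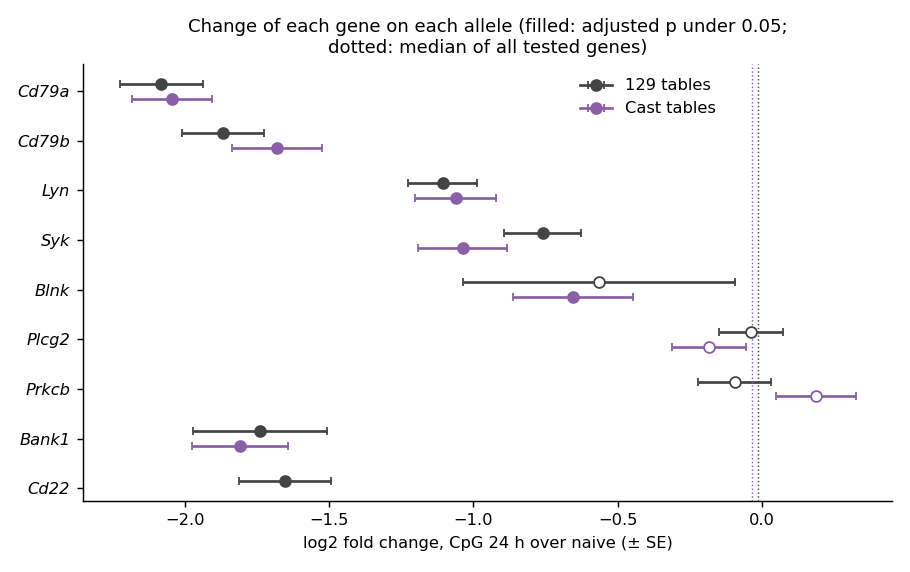
Log2 fold change of CpG over naive with its SE for each gene on each allele (n = 3 per group); filled points have an edgeR adjusted p under 0.05 and dotted lines mark the median of all tested genes. Cd79a, Cd79b, Cd22 and Bank1 lie between -1.65 and -2.08, and Plcg2 and Prkcb lie near the dotted lines.

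The upstream sequence of 4 genes is shown because Cd79a, Bank1 and Cd22 fell most among the genes with a RefSeq window and Prkcb did not pass the test. RefSeq promoter windows (GRCm38.p6, the reference strain and neither 129 nor Cast) were matched for 7 of the 9 genes, with no entry used for Cd79b and Lyn. Each line gives the 250 bases before the annotated start, 5′ to 3′ on the gene's strand, with GGAA or its complement TTCC in capitals, the core bound by ETS factors such as PU.1.
Cd79a, chr7:24897247-24897496, plus strand: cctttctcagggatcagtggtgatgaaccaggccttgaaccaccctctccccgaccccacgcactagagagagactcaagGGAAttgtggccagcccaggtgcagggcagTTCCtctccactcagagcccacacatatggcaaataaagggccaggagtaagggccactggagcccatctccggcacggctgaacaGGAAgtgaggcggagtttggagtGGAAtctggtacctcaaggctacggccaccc
Bank1, chr3:136326067-136326316, minus strand: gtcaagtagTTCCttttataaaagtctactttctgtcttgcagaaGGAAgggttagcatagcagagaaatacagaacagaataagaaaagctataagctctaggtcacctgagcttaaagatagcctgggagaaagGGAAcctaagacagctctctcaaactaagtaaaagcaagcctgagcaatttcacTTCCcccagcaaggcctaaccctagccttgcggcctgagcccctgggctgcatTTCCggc
Cd22, chr7:30879029-30879278, minus strand: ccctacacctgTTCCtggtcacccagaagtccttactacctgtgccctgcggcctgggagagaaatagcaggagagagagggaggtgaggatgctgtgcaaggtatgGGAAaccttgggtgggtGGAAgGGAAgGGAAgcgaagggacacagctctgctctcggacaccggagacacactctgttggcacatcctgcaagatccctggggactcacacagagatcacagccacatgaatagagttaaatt
Prkcb, chr7:122288875-122289124, plus strand: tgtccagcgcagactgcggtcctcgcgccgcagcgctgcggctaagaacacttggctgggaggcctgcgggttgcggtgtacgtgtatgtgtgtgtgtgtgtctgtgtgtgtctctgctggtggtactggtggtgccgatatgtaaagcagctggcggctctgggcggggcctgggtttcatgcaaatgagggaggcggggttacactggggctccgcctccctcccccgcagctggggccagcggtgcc
The core was found 4 times in the Cd79a window, 5 times in Bank1, 5 times in Cd22, 2 times in Blnk and 2 times in Plcg2. It was not found in the Prkcb window nor in the first of the Syk windows, and 1 was found in the other Syk window. A short motif of this kind is frequent, since 93.4% of the 32851 windows hold it on either strand, with 2.91 matches per window. The octamer ATGCAAAT was found in the windows of Blnk and Prkcb, 1 time in each, and is held by 1.60% of windows. Both strands were also searched for the E-box CANNTG, which all 8 windows of these genes and 66.2% of all windows hold and for CCCNNGGG, found in Cd22 and Bank1 and in 11.8% of all windows. Matches of one motif may share bases with another, and a match is a description of the letters, not a site.

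Reads that told the alleles apart gave, for 8 genes, the Cast share, that is Cast reads over 129 plus Cast reads in a sample. Cd79a leaned to Cast, and Bank1 leaned to 129. The share over all autosomal reads was 52.7% ± 0.793 in naive and 52.9% ± 0.812 in CpG samples (SD, n = 3 each). The Cast share of Cd79a was 62.9%, 64.6% and 65.1% in naive and 66.5%, 65.1% and 63.5% in CpG samples, from 1748 to 7664 reads per sample. Over both groups it sat at the 86.7th percentile of 5027 autosomal genes. The Cast to 129 difference was 0.84 ± 0.06 (log2 ± SE) in naive samples (edgeR adjusted p = 5.32e-05) and 0.89 ± 0.06 in CpG samples (edgeR adjusted p = 3.59e-05). Of 10089 autosomal genes, 24.2% differed between the alleles in naive samples, 14.7% higher from Cast and 9.48% higher from 129. In CpG samples 24.5% differed, 14.8% higher from Cast and 9.61% higher from 129. Of the 8 genes, 3 were called in naive samples (Cd79a, Syk and Plcg2) and 3 in CpG samples (Cd79a, Plcg2 and Bank1). With each allele scaled to its own total, 4 were called in naive samples, Cd79a toward Cast and 3 toward 129: Cd79b (-0.22, edgeR adjusted p = 0.0356), Bank1 (-0.43, 0.0102) and Prkcb (-0.44, 0.00531). Under that scaling the CpG calls were Cd79a toward Cast and Bank1 and Syk (-0.20, edgeR adjusted p = 0.0302) toward 129. The level difference can also come from the strain tables, since a gene with more informative positions or another annotated length collects more reads; this was not tested.

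**Figure D3:**
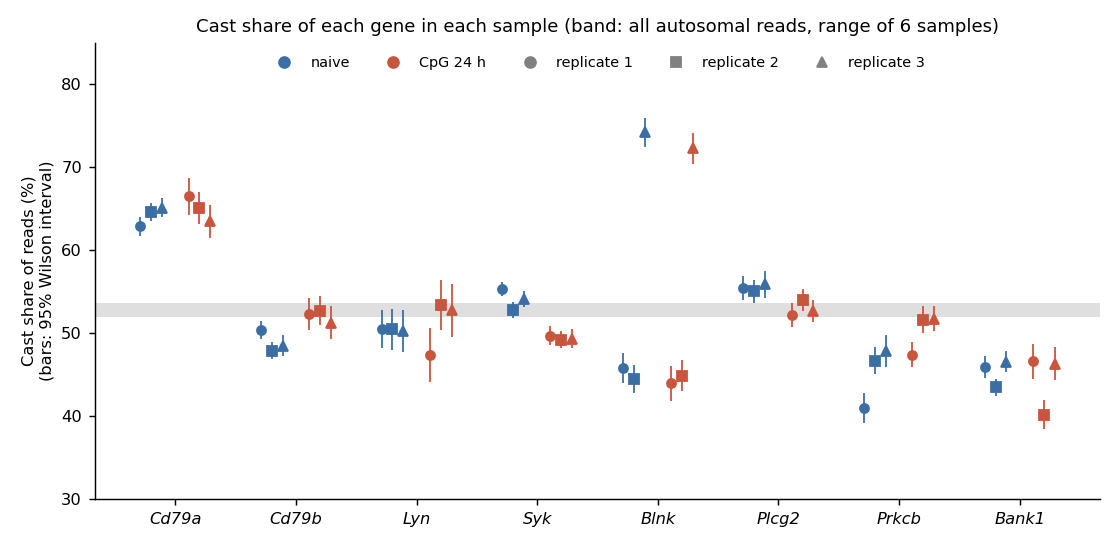
Cast share of the reads of each gene in each sample, in percent, with 95% Wilson intervals for counting error. Cd79a lies between 62.9% and 66.5% in all 6 samples, and replicate 3 of Blnk lies above 72% in both groups while the other 4 Blnk samples lie below 46%.

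Plcg2 and Syk also read higher from Cast in naive samples. The Cast share of Plcg2 was 55.4%, 55.0% and 55.9% in naive and 52.2%, 54.0% and 52.7% in CpG samples, without overlap. Its Cast to 129 difference was 0.32 (log2, edgeR adjusted p = 0.00238) in naive samples and 0.17 (0.0345) in CpG samples. The naive call was lost when each allele was scaled to its own total (edgeR adjusted p = 0.0607), and so was the CpG call (0.984), which was also lost with any 1 of the 6 samples left out (0.0503 to 0.147) and in DESeq2 (0.159). For Bank1 the share was 45.9%, 43.5% and 46.6% in naive and 46.6%, 40.1% and 46.3% in CpG samples, lowest in replicate 2 in each group. Bank1's difference was -0.27 (edgeR adjusted p = 0.0508, and 2.51e-05 with the replicate block) in naive and -0.33 (edgeR adjusted p = 0.0257) in CpG samples. The CpG call was lost without CpG replicate 2 (edgeR adjusted p = 0.0849), without CpG replicate 3 (0.0523) and in DESeq2 (0.0818).

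Whether the naive and CpG samples differed more on an allele than on the other was tested as a change of the Cast to 129 ratio. None of the 8 genes passed (edgeR quasi-likelihood test, adjusted p under 0.05), where 1.01% of 10089 genes did, 0.535% toward Cast and 0.476% toward 129. At an unadjusted p under 0.05 there were 2, Cd79b and Syk, and DESeq2 called 0. With the replicate number as a block, 2 of the 8 passed, Syk and Prkcb, where 7.79% of all genes did. The Cast share of Syk was 55.3%, 52.8% and 54.1% in naive and 49.7%, 49.2% and 49.3% in CpG samples, lower in 3 of 3 pairs. The ratio change was -0.27 ± 0.06 (log2 ± SE, edgeR adjusted p = 0.104), and -0.27 ± 0.07 with the block (edgeR adjusted p = 0.00547). Its naive Cast to 129 difference was 0.23 (edgeR adjusted p = 0.00628), a call lost when each allele was scaled to its own total (0.358).

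Prkcb had a ratio change of the opposite sign. Its Cast share was 40.9%, 46.7% and 47.8% in naive and 47.4%, 51.6% and 51.7% in CpG samples. The CpG sample was higher in each pair, by 6.47, 4.93 and 3.89 points, and replicate 1 was the lowest in each group. The ratio change was 0.30 ± 0.13 (log2 ± SE, edgeR adjusted p = 0.441), and 0.0158 with the block. Without naive replicate 1 it was 0.17. The naive Cast to 129 difference of Prkcb was -0.28 (edgeR adjusted p = 0.0627, and 5.73e-05 with the block). Cd79b had a share of 50.4%, 47.9% and 48.5% in naive and 52.3%, 52.7% and 51.3% in CpG samples. That of Lyn was 50.5%, 50.5% and 50.2% in naive and 47.3%, 53.4% and 52.7% in CpG samples.

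The share of Blnk separated replicate 3 from the others. It was 45.8%, 44.5% and 74.2% in naive replicates 1 to 3 and 43.9%, 44.9% and 72.3% in the CpG replicates. In reads, naive replicate 3 had 1776 from Cast and 616 from 129, against 1274 and 1509 in naive replicate 1. The offset of replicate 3 was present in both groups, with a gap of 26.5 points to the nearest other sample. Among 5027 autosomal genes, 2.47% had replicate 3 at least 20 points away from the other 4 samples in 1 direction, and 5.77% had any replicate so. The Cast to 129 difference of Blnk was 0.30 (log2, edgeR adjusted p = 0.745, and 1.48e-05 with the block) in naive samples. In CpG samples it was 0.23 (edgeR adjusted p = 0.810, and 0.00102 with the block).

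The genes next to Blnk on chromosome 19, 3 on each side, did not show an offset of this size. In naive samples Ccnj had 63.2%, 60.7% and 61.2% in replicates 1 to 3, Zfp518a had 53.9%, 51.6% and 48.7%, and Pik3ap1 had 31.5% in replicate 3 and 29.3% in replicate 1. Entpd1, Tm9sf3 and Lcor likewise had replicate 3 within the range of the other samples or within 3 points of it. Next to Prkcb, replicate 1 was the lowest in both groups for Palb2, at 37.2% and 45.0%, and for Dctn5, at 48.9% and 42.6%, where replicates 2 and 3 lay between 55.4% and 75.2%. Ndufab1 also had replicate 1 lowest in both groups, at 49.3% and 64.7%, with the others at 55.0% to 76.0%. On the other side of Prkcb, replicate 1 was the highest naive sample for Rbbp6 (54.5%) and Arhgap17 (52.7%). Tnrc6a had replicate 1 lowest in naive samples (38.5%) but not in CpG samples, where replicate 3 was lowest (39.2%). Of the other genes of the pathway, Pik3cd, the PI3 kinase subunit delta, had replicate 3 at 45.3% and 48.0% with the others at 73.7% to 77.2%. Rasgrp3, which activates Ras, had replicate 1 at 58.3% and 58.6% with the others at 94.4% to 95.4%.

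**Figure D4:**
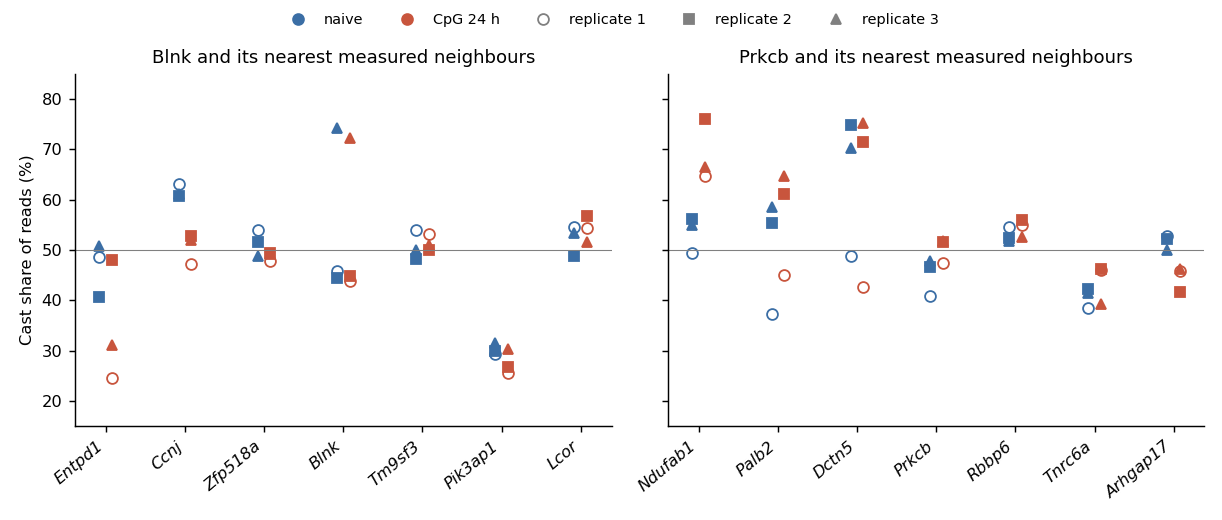
Cast share, in percent, of Blnk and Prkcb and of 3 genes on each side of them, by replicate and group. Replicate 3 of Blnk stands at 74.2% and 72.3% with no offset of that size in its neighbours, and replicate 1 is lowest for Prkcb, Ndufab1, Palb2 and Dctn5 in both groups.

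Beyond the 9 genes, a list of 58 other genes of the pathway gives the setting. On the 129 allele 54 were tested, 31 were lower and 4 higher after CpG, with a median log2 fold change of -0.90. On the Cast allele 52 were tested, 31 were lower and 6 higher, with a median of -0.74. Among receptor components and co-receptors 3 of 5 were lower on each allele, and Ighd, the heavy chain of IgD on mature naive B cells, fell with log2 fold changes of -4.81 (129) and -4.63 (Cast). Its mean went from 2558 ± 533 to 91.3 ± 19.7 CPM on the 129 allele (SD, n = 3 each). Cr2, the complement co-receptor CD21, fell with -2.60 and -2.50. Ighm, the IgM heavy chain, had log2 fold changes of -0.26 and -0.22 and Igkc, the kappa light chain, -0.20 and -0.04, and neither passed on either allele; with upper-quartile scaling Igkc passed on the 129 allele (-0.35, edgeR adjusted p = 0.0453).

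Kinases next to Lyn and Syk were lower in 3 of 4 tested on each allele. Btk, the X-linked kinase that acts with Blnk, is known to be active in B cells but had 1, 0 and 1 reads in naive and 0, 0 and 1 reads in CpG samples in the 129 tables. In the Cast tables it had 2, 1 and 1 reads in naive and 0 in CpG samples, too few for a test on either allele. Among 10 genes of calcium release and NFAT 6 were lower on each allele, and Nfatc2, an NFAT transcription factor, fell with log2 fold changes of -2.61 (129) and -1.93 (Cast). Sh3bp2, an adaptor that binds Syk, fell with -2.60 and -2.39. Among PI3 kinase genes 2 of 6 were lower and 1 higher on the 129 allele, and 3 of 5 lower and 1 higher on the Cast allele. Adaptors and exchange factors were lower in 4 of 9 and in 5 of 10, with 1 higher on the Cast allele. The early target genes that could be tested were lower, 3 of 3 on the 129 and 2 of 2 on the Cast allele. Their reads were few, with means of 11.5 to 15.3 per sample in the 129 tables and 14.3 to 18.5 in the Cast tables.

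The inhibitors were lower in 8 of 12 on the 129 allele and 9 of 11 on the Cast allele, where 1 was higher. Dok3, an adaptor that restrains the receptor, fell with log2 fold changes of -4.36 (129) and -3.81 (Cast). Sla, an adaptor that takes part in receptor turnover, fell with -3.77 and -3.91, from 823 ± 313 to 60.5 ± 28.8 CPM on the 129 allele (SD, n = 3 each). Siglecg, a lectin related to Cd22, fell with -3.15 and -3.00, and Lax1, a membrane adaptor, with -2.32 and -2.92. Dok3 and Sla are also known in macrophages, whose genes fell in the same samples; the part of those cells was not tested.

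The RAF to ERK genes were the list with most rises, 3 of 5 higher on each allele, with the other 2 lower on the 129 allele. Mapk3, which encodes the kinase ERK1, rose by 1.54 ± 0.17 (log2 ± SE, edgeR adjusted p = 2.36e-04) on the 129 allele, from 23.3 ± 2.35 to 67.7 ± 8.04 CPM (SD, n = 3 each). On the Cast allele Mapk3 rose by 1.17 ± 0.28 (edgeR adjusted p = 0.00531), a call lost with replicate 3 left out of both groups (0.0557) and with replicate 1 left out of both (0.0544). Akt1, a kinase downstream of PI3 kinase, rose by 1.38 (129) and 1.11 (Cast). Map2k2, a kinase that activates ERK, rose by 0.70 and 0.93. Map2k1, chosen after its values were seen, went from 131 ± 12.0 to 93.6 ± 15.2 CPM on the 129 allele, a change of -0.48 on the log2 scale (edgeR adjusted p = 0.03), and from 145 ± 17.0 to 386 ± 16.9 CPM on the Cast allele (1.41, edgeR adjusted p = 1.37e-05). The 129 call of Map2k1 was lost with replicate 3 (edgeR adjusted p = 0.113) or replicate 1 (0.155) left out of both groups, when no RAF to ERK gene was called lower. It was also lost without naive replicate 1 (0.0624), naive replicate 2 (0.0916), CpG replicate 1 (0.109) or CpG replicate 3 (0.0991). Its ratio change was 1.91 ± 0.13 (edgeR adjusted p = 0.00182), and stayed called with each 1 of the 6 samples left out. Of the 53 genes of the list tested for a ratio change 3 passed, Map2k1, Blk and Itpr2. The call of Blk was lost without any 1 sample other than CpG replicate 2 (0.0513 to 0.0651), and that of Itpr2 without any 1 of the 6 samples (0.107 to 0.181).

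**Figure D5:**
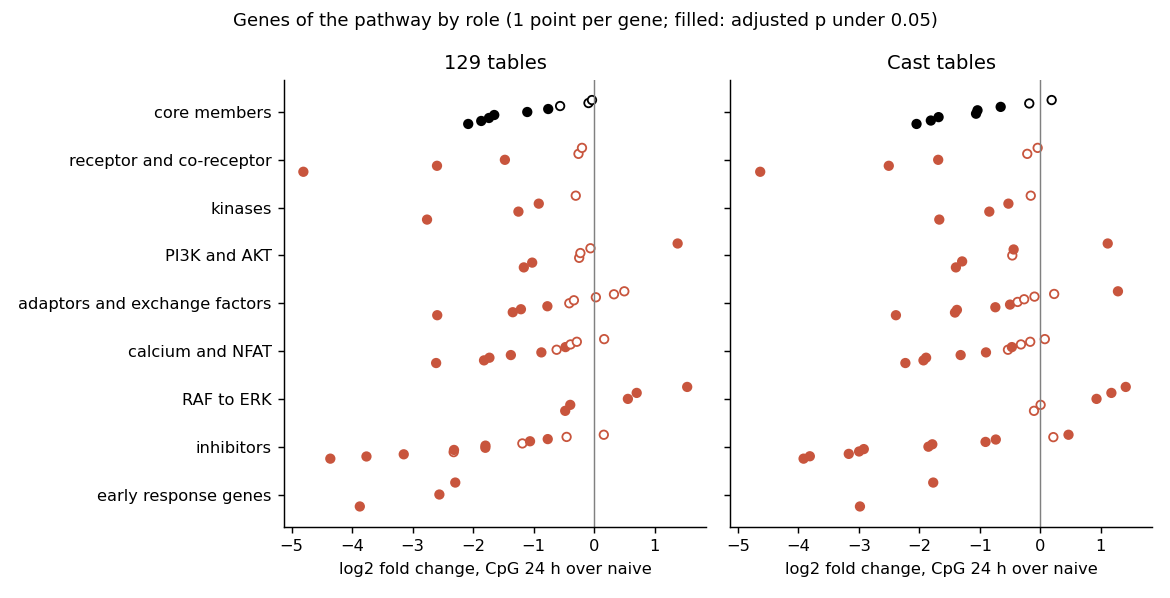
Log2 fold change of each tested gene of the pathway lists on each allele, grouped by role; filled points have an edgeR adjusted p under 0.05. Ighd, Dok3 and Sla lie at -3.77 or below on both alleles, and Akt1, Mapk3 and Map2k2 lie above 0 on both.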

How the data were processed

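The members and the gene lists were chosen with earlier results of these data known. Total RNA libraries of 6 of the 18 samples in the series were used, 3 naive and 3 stimulated, and the other 12 were not analysed here. The authors deposited, for each sample, 1 table of whole-number read counts per gene for the 129 annotation and 1 for the Cast annotation, without normalization, and each table closes with summary rows in the htseq-count format. The submitters' processing notes name STAR, featureCounts, Subread 2.0.0 and mm10 with no role, and how a read was given to a strain is not given in the sources used here. These rows entered no test; the row for no annotated gene held 44.5% to 67.1% of aligned reads.

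edgeR 4.0.16 (R 4.3.3) was run on each strain's counts as its robust quasi-likelihood test, after filterByExpr and TMM scaling, and p-values were adjusted by Benjamini-Hochberg over all genes tested (threshold 0.05); SEs came from the F statistic. CPM are TMM-scaled. For the alleles, 28374 genes were matched by name and chromosome between the tables. The Cast to 129 ratio and its change were tested in 1 edgeR fit that had sample terms and gave both alleles of a sample the same library size. It covered 10089 autosomal genes that reached 10 reads, alleles summed, in 3 or more samples. Wilson intervals on shares describe counting error alone, because PCR copies are not told apart without molecular identifiers. Scripts were tested on simulated data. Alternatives were other scalings, no filter, DESeq2 1.42.0, the alleles summed, own allele totals, a minimum of 30 reads, the replicate block and each sample left out, and, added after seeing the data, replicate 1 or 3 left out of both groups.

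Named were the 9 members and, from 58 other pathway genes, up to 8 rises and 8 falls with the largest mean log2 fold change of both alleles, past 0.05 on both in 1 direction, with a mean of at least 100 reads; Btk was named in every case. Some genes of the lists are not reported here and were left out of the counts. Replicate numbers came from the sample titles, and same-numbered naive and CpG samples deviated together from their group means, which was taken as a pairing. Pearson r was 0.57, 0.45 and 0.61 over 10581 genes in the 129 tables, and 0.24, 0.17 and 0.25 over 10365 in the Cast tables. For the Cast share, r was 0.77, 0.70 and 0.77 over 5027 autosomal genes. Deviations within a group cancel out, so the negative r of differently numbered samples is no separate evidence. The labels give no source for the pairing. The block is given where it changes a call.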

Additional observations from a re-analysis of the deposited data

Results flagged for a closer look

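With the replicate number as a block, the test of a change of the Cast to 129 ratio passed for 2 of the 8 genes, Syk and Prkcb. Of 10089 autosomal genes, 7.79% passed it. For Syk the blocked change was -0.27 ± 0.07 (log2 ± SE, edgeR adjusted p = 0.00547), and the Cast share was lower in CpG in 3 of 3 pairs. The SE without the block was 0.06, so the lower adjusted p of Syk came without a smaller SE. For Prkcb the blocked change was 0.30 ± 0.09 (edgeR adjusted p = 0.0158), with an SE of 0.13 without the block, and the share was higher in 3 of 3 pairs. Without naive replicate 1, and without the block, the change of Prkcb was 0.17. Without the block neither passed (edgeR adjusted p = 0.104 and 0.441). Macrophage genes were lower in the CpG samples on both alleles, and their part in the Syk ratio was not tested.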

How the results depend on the processing

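The stimulation counts over all genes stayed within 1.5 times of 5842 and 6445 under every alternative run. They ran from 4560 to 6884 on the 129 allele and from 5303 to 7196 on the Cast allele, with 7105 for the alleles summed. The members called stayed at 6 or 7 on the 129 and 5 or 6 on the Cast allele. Counts of ratio changes and allele differences depended more on the fit. With the replicate block, ratio changes went from 102 to 786 genes (2 of 8 members), naive allele differences from 2442 to 4362 (6 members) and CpG differences from 2467 to 4469. Without a single sample, ratio changes ran from 15 to 29 genes, and naive allele differences from 1562 to 2328. Of the members, 1 to 2 were then called for the CpG difference, and DESeq2 called 1. Among the pathway genes the block also gained calls for Rasgrp3 (edgeR adjusted p = 0.0235), Ppp3ca (0.00623) and Sla2 (0.0154) on the 129 allele and for Pik3cd (0.00431) on the Cast allele, and lost Ptpn22 on the Cast allele (0.0791). It changed no other call of stimulation among the genes of the lists.

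Signs turned mostly for values near 0, and the cause was not tested. On the 129 allele the log2 fold change of Plcg2 became 0.027 without naive replicate 2 and 0.013 without CpG replicate 1. It was also 0.013 with replicate 1 left out of both groups. With the alleles summed, the log2 fold change of Prkcb was 0.073 and that of Map2k1 0.89, where the 129 allele alone gave -0.095 and -0.48. On the Cast allele that of Igkc became 0.025 without the filter, and ran from -0.098 to 0.11 with 1 sample left out. With 1 sample left out, the ratio change of Blnk ran from -0.63 to 0.51, turning without naive replicate 3 (0.51), CpG replicate 1 (0.24) and CpG replicate 2 (0.21). That of Lyn ran from -0.022 (without CpG replicate 2) to 0.15, and that of Bank1 from -0.12 to 0.066 (without CpG replicate 2). The naive difference of Blnk ran from -0.28 (without naive replicate 3) to 0.64, the CpG difference of Blnk from -0.32 (without CpG replicate 3) to 0.54, and that of Prkcb from -0.029 (without CpG replicate 3) to 0.096. With own allele totals the difference became -0.13 for Lyn in naive samples, and -0.048 for Cd79b, -0.10 for Lyn and -0.15 for Prkcb in CpG samples. The CpG difference of Plcg2 was called under no setting that left out a sample (edgeR adjusted p from 0.0503 to 0.147). The 8 genes had from 900 to 12586 reads over both alleles per sample.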
